A study of Homo sapiens with 10 samples.

Results

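The natriuretic peptides and stretch-response genes examined here are 8 genes chosen by name: NPPA, NPPB, ANKRD1, XIRP1, XIRP2, CCN1, CCN2 and UCHL1. All 8 were found among the 78932 gene identifiers of the count table, and all 8 were among the 21033 genes with enough counts to be tested. RNA was measured in beating cardiomyocytes differentiated from the widely used human embryonic stem cell line H1. The knockdown group (5 libraries) received 50 nM of a GapmeR aimed at CLIPPER RNA, and the control group (5 libraries) received 50 nM of a control GapmeR. A GapmeR is an antisense oligonucleotide that directs RNase H to cut the RNA it pairs with. Both groups were transfected with the same lipid reagent on day 9 of differentiation and collected 48 hours later, so every library comes from transfected cells of 1 stem cell line. CLIPPER itself was not analysed here, so its level gives no check of the labels.

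Heart muscle cells release atrial natriuretic peptide (NPPA) and B-type natriuretic peptide (NPPB) when they are stretched, and both hormones act on guanylyl cyclase receptors to promote salt loss and vessel relaxation. The other genes are known from the same settings of load or cell tension. ANKRD1 encodes a muscle ankyrin repeat protein that binds titin and also enters the nucleus, XIRP1 and XIRP2 encode actin-binding Xin repeat proteins of the intercalated disc and Z-disc, CCN1 and CCN2 encode secreted matricellular proteins induced by YAP and TEAD factors, and UCHL1 encodes a ubiquitin C-terminal hydrolase best known from neurons.

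The promoters of ANKRD1, CCN2 and XIRP1 are shown because these 3 genes were lower together in the knockdown and because ANKRD1 and CCN2 are textbook targets of TEAD factors. Each run holds the 250 bases before the RefSeq start of the gene (GRCh38.p14), read 5′ to 3′ on the gene's own minus strand. ANKRD1 lies at chr10:90921088-90921337, CCN2 at chr6:131951373-131951622 and XIRP1 at chr3:39192596-39192845. Capitals mark matches on either strand to GGAATG (the core of the TEAD motif), GATAA (the core of the GATA motif), TGANTCA (AP-1), the MEF2 box or the CArG box of SRF.
ANKRD1: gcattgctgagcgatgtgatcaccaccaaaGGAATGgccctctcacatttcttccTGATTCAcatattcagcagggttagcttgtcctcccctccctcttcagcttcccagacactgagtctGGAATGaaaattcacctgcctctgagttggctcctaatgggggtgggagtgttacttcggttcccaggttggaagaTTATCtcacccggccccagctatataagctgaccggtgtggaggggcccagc
CCN2: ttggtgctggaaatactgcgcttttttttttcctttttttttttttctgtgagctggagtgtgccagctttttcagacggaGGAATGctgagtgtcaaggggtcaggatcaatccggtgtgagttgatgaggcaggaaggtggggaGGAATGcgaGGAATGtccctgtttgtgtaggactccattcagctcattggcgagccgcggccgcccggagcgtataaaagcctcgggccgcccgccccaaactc
XIRP1: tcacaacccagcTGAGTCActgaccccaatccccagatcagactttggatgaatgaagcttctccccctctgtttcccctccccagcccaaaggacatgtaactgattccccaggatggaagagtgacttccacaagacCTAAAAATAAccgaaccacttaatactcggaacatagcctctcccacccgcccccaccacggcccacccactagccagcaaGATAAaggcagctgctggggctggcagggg
The CCN2 window held 3 matches to GGAATG, with first bases at -169, -104 and -95 from the start, and the ANKRD1 window held 2, at -220 and -128. Of 35116 promoter windows of the same length, 11.9% held at least 1 such match, 0.94% at least 2 and 0.0826% at least 3. ANKRD1 also had 1 match to TGANTCA and 1 to GATAA, and XIRP1 had 1 to TGANTCA, 1 to GATAA and 1 to the MEF2 box. Members not called lower held such matches too. NPPA had 2 to GATAA and 1 to TGANTCA, and UCHL1 had 1 to GATAA. XIRP2, which was called lower, had 3 to GATAA in its first window, and 1 to TGANTCA and 1 to the MEF2 box in its second. GATAA was held by 20.4% of all windows, TGANTCA by 6.57%, the MEF2 box by 1.75% and the CArG box by 1.16%. No CArG box was found in any member window. Windows were listed for 6 members, and none were listed for NPPB and CCN1. A match describes letters only and not binding.

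The libraries held between 32.9 and 45.1 times 1e6 counts each. The first principal component of log2 CPM held 85.2% of the variance, and knockdown libraries scored -140 to -49.5 on it, against 102 to 108 for control libraries. Knockdown replicate 2 (-49.5) and then replicate 1 (-93.3) lay nearest to the controls. The summed level of 10 cardiomyocyte markers was 10477 to 17366 CPM in knockdown and 26249 to 36281 CPM in control libraries (CPM, counts per 1e6 of the normalised library size). Of these markers 7 fell, 3 did not pass the test and none rose. Cardiac troponin T (TNNT2) averaged 1497 ± 216 CPM in knockdown and 4432 ± 251 CPM in control libraries (SD, n = 5 each). In bulk RNA, fewer cells of a type and less RNA per cell cannot be told apart.

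Of the 8 members, 5 fell in the knockdown (NPPB, ANKRD1, XIRP1, XIRP2 and CCN2), 2 rose (CCN1 and UCHL1) and NPPA did not pass the test. Across all tested genes 79.7% passed the same test (edgeR's quasi-likelihood test, Benjamini-Hochberg adjusted p below 0.05), 40.1% higher and 39.6% lower, so that a count of 7 among 8 is near the background. That balance depends on the scaling: 8441 genes were higher and 8332 lower here, and 9566 higher and 7277 lower with upper-quartile factors. The groups did not overlap in 2 members, XIRP1 and UCHL1, against 67.5% of all tested genes (33.7% with all knockdown libraries higher, as UCHL1, and 33.8% with all lower, as XIRP1). The median log2 fold change of the members was -0.91, and that of all tested genes was 0.0056. The same shares of 40.1% higher and 39.6% lower are the background for every gene list and marker list given here. No list was tested as a set. Spread between libraries of the same group was wide in most members, and the plot of the members by library shows each value.

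**Figure D1:**
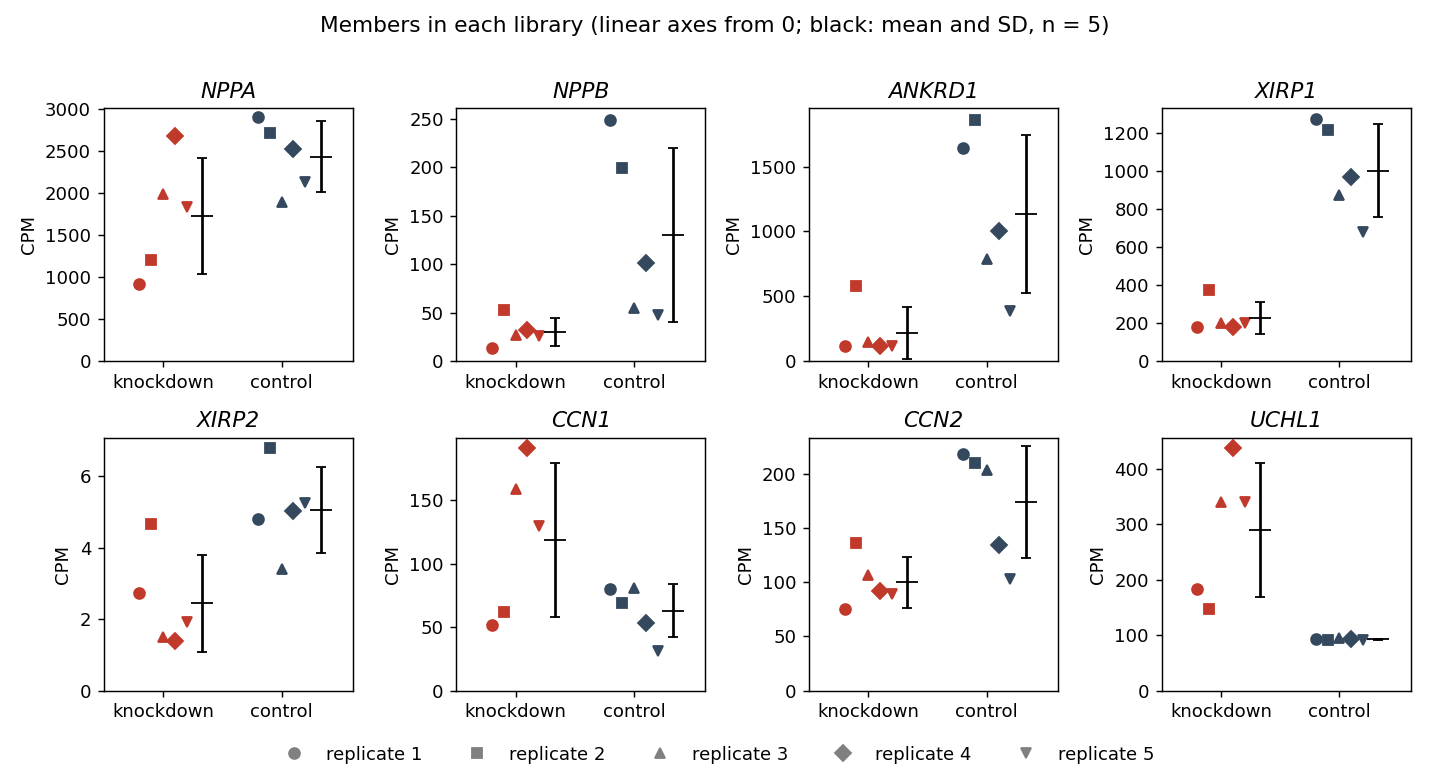
Level of each of the 8 genes in CPM (vertical axes, linear from 0) in the 5 knockdown and 5 control libraries, with 1 marker shape per replicate number and the mean with SD in black. XIRP1 and UCHL1 are the panels without overlap, and knockdown replicate 2 (square) is the highest knockdown library for ANKRD1 (577 CPM) and XIRP1 (374 CPM).

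The natriuretic peptide genes lie next to each other on chromosome 1, with NPPB 9.12 kb from NPPA, and both are read on the minus strand (GRCh38, GENCODE release 44). NPPB (ENSG00000120937, 11857464 to 11858945, 3 exons) had 13.3, 53.0, 27.1, 32.5 and 26.1 CPM in knockdown replicates 1 to 5, against 249, 199, 54.6, 101 and 47.1 CPM in control replicates 1 to 5. Of the knockdown libraries, 4 lay below all controls, and replicate 2 lay between control replicates 5 and 3. The controls themselves differed 5.29-fold, replicates 1 and 2 being the high ones. The means were 30.4 ± 14.5 CPM in knockdown and 130 ± 89.9 CPM in control libraries (SD, n = 5), and the log2 fold change was -2.10 ± 0.483 (SE), which is 4.28-fold lower (edgeR's quasi-likelihood test, adjusted p = 0.00153).

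NPPA (ENSG00000175206, 11845709 to 11848345, 3 exons) was far more abundant. It had 924, 1200, 1989, 2687 and 1836 CPM in knockdown replicates 1 to 5, against 2913, 2718, 1892, 2529 and 2135 CPM in control replicates 1 to 5. Knockdown replicates 1, 2 and 5 lay below all controls, while replicate 4 lay above 3 of the 5 controls. The means were 1727 ± 694 CPM in knockdown and 2437 ± 419 CPM in control libraries (SD, n = 5), with a log2 fold change of -0.50 ± 0.255 (SE) that did not pass (edgeR, adjusted p = 0.0912). Without knockdown replicate 4 the value was -0.70 and passed (adjusted p = 0.014). CLCN6, a gene on the opposite strand whose exons share 286 bases with those of NPPA, had 5376 counts in knockdown and 16691 in control libraries, against 317577 and 472804 for NPPA. The library kit marks strand, but the strand setting of the counting is not given in the sources used here. It is therefore not known how reads in the shared bases of overlapping genes were counted.

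The balance between the natriuretic peptides differed between the groups. There were 69.4, 22.6, 73.4, 82.6 and 70.5 NPPA counts for each NPPB count in knockdown replicates 1 to 5, against 11.7, 13.7, 34.7, 25.1 and 45.3 in control replicates 1 to 5. Knockdown replicate 2 fell within the control range and the other knockdown libraries lay above it. The log2 ratio was 5.86 ± 0.769 in knockdown and 4.52 ± 0.843 in control libraries (SD, n = 5), a difference of 1.35 (exact permutation test, two-sided p = 0.0397, adjusted p = 0.0397 over 3 ratios). This call was kept when knockdown replicate 2 or control replicate 5 was left out, and lost when any of the other 8 libraries was (adjusted p of 0.0556 to 0.0794).

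A related list held the C-type peptide gene, receptors, processing and degrading enzymes, and effectors of cyclic GMP. Of its 13 genes 12 were tested, and 3 rose while 7 fell. The median log2 fold change was -0.84 (-1.46 without knockdown replicates 1 and 2). CORIN, the protease that cuts the NPPA precursor, averaged 178 ± 51.2 CPM in knockdown and 525 ± 17.8 CPM in control libraries (SD, n = 5) and was 2.94-fold lower. FURIN, which cuts the NPPB precursor, was 2.07-fold higher, at 215 ± 39.7 against 104 ± 6.73 CPM in control libraries. PRKG1, a kinase activated by cyclic GMP, was 3.38-fold lower, and the phosphodiesterase genes PDE9A and PDE2A were 4.87-fold lower and 2.27-fold higher. PDE9A and PDE2A were low, at 0.768 and 1.85 CPM in knockdown and 3.79 and 0.815 CPM in control libraries. The C-type peptide gene NPPC rose 2.98-fold at a mean of only 0.369 CPM in knockdown libraries, with overlap between the groups. NPR2, the receptor of the C-type peptide, did not pass (log2 fold change 0.15). NPR1, the receptor of both cardiac peptides, was near the limit of detection (0.0365 CPM in knockdown and 0.0648 CPM in control libraries) and was not tested.

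Of 16 transcription factors known to act on the natriuretic peptide genes, 13 fell and 2 rose, with a median of -0.97. Among all tested genes 39.6% were lower and 40.1% higher. The activators GATA4 (log2 fold change -2.35), MYOCD (-2.71), MEF2A (-1.42), SRF (-1.04) and TBX5 (-0.97) were lower. NKX2-5, another activator, fell less (log2 fold change -0.45) and with overlap between the groups. TBX3 and TBX2, repressors of the chamber gene programme, were 2.21-fold and 1.53-fold higher, TBX2 with overlap between the groups. The repressor REST was lower (log2 fold change -0.26), also with overlap. HEY2, a ventricular repressor of atrial genes, was 3.58-fold lower. HAND1 did not pass (log2 fold change 0.24).

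**Figure D2:**
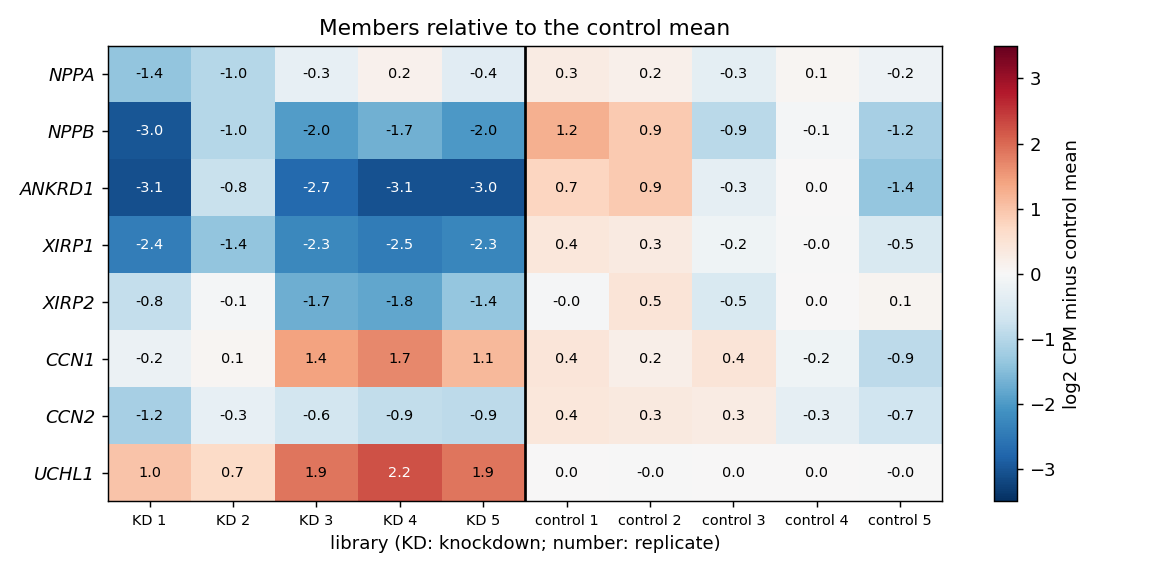
Log2 CPM of each gene minus its mean over the control libraries, for the 5 knockdown (KD) and 5 control libraries. ANKRD1 and XIRP1 are lowest in knockdown replicates 1, 3, 4 and 5 (ANKRD1 -3.1 to -2.7), CCN1 is high in replicates 3, 4 and 5 (1.1 to 1.7), and UCHL1 lies at 0.0 in every control.

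ANKRD1 (ENSG00000148677, chromosome 10, 90912096 to 90921087, minus strand, 9 exons) showed the largest change among the 8 genes. Its level was 116, 577, 149, 118 and 119 CPM in knockdown replicates 1 to 5, against 1647, 1857, 789, 1004 and 383 CPM in control replicates 1 to 5. Replicate 2 alone among the knockdown libraries reached the control range, above control replicate 5. The means were 216 ± 202 CPM in knockdown and 1136 ± 609 CPM in control libraries (SD, n = 5), a log2 fold change of -2.40 ± 0.547 (SE), or 5.26-fold lower (edgeR, adjusted p = 0.00143). Without knockdown replicate 2 the log2 fold change was -3.19 (adjusted p = 3.2e-05).

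Among ANKRD1's relatives and the titin or Z-disc proteins it works beside, 14 of 15 genes were tested. Of these 9 fell and 3 rose, with a median of -0.71. The titin gene TTN averaged 3518 ± 1557 CPM in knockdown and 12375 ± 1344 CPM in control libraries (SD, n = 5). LDB3 and PALLD, of the Z-disc and of actin bundles, were 3.92-fold and 2.27-fold lower. The titin cap gene TCAP was 4.76-fold higher and TRIM63, a muscle ubiquitin ligase, 2.13-fold higher. ANKRD23, a relative that also binds titin, rose 2.05-fold (3.38 ± 0.696 CPM in knockdown and 1.64 ± 0.215 CPM in control libraries), while ANKRD2 was not tested at 0.0642 and 0.0443 CPM.

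XIRP1 (ENSG00000168334, chromosome 3, 39183210 to 39192596, minus strand, 2 exons) had 181, 374, 203, 178 and 199 CPM in knockdown replicates 1 to 5, against 1273, 1214, 875, 966 and 677 CPM in control replicates 1 to 5. The groups did not overlap, and knockdown replicate 2 was again the highest of its group. The log2 fold change was -2.14 ± 0.241 (SE), or 4.41-fold lower, from means of 227 ± 83.0 CPM in knockdown and 1001 ± 246 CPM in control libraries (SD, n = 5, edgeR adjusted p = 4.8e-06).

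XIRP2 (ENSG00000163092, chromosome 2, 166888480 to 167259753, plus strand) was scarce, with 46 to 219 counts per knockdown and 114 to 292 per control library. Its levels were 2.74, 4.66, 1.5, 1.39 and 1.92 CPM in knockdown replicates 1 to 5, against 4.79, 6.78, 3.40, 5.01 and 5.25 CPM in control replicates 1 to 5. Replicate 2 was the single knockdown library inside the control range. The log2 fold change was -1.03 ± 0.311 (SE), or 2.04-fold lower (edgeR, adjusted p = 0.00859), and -1.67 without knockdown replicates 1 and 2.

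There were 66.1, 80.4, 135, 128 and 104 XIRP1 counts for each XIRP2 count in knockdown replicates 1 to 5, against 266, 179, 257, 193 and 129 in control replicates 1 to 5. The log2 ratio of XIRP2 to XIRP1 was -6.63 ± 0.438 in knockdown and -7.63 ± 0.428 in control libraries (SD, n = 5), a difference of 1.00 (exact permutation test, two-sided p = 0.0159, adjusted p = 0.0238). Control replicate 5 overlapped the knockdown range. The difference was 0.71 and did not pass without knockdown replicates 1 and 2 together (adjusted p = 0.0714).

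Of 13 partners of the Xin proteins 10 fell and none rose, with a median of -1.06 (-1.60 without knockdown replicates 1 and 2). CTNNB1 and CDH2, beta-catenin and N-cadherin of the adherens junction, were 4.37-fold and 4.15-fold lower, the actin regulator CTTN 3.03-fold and the filamin C gene FLNC 3.43-fold lower. NRAP (log2 fold change -0.74), CTNND1 (-0.10) and LASP1 (0.09) did not pass. With upper-quartile scaling 9 fell and 1 rose.

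**Figure D3:**
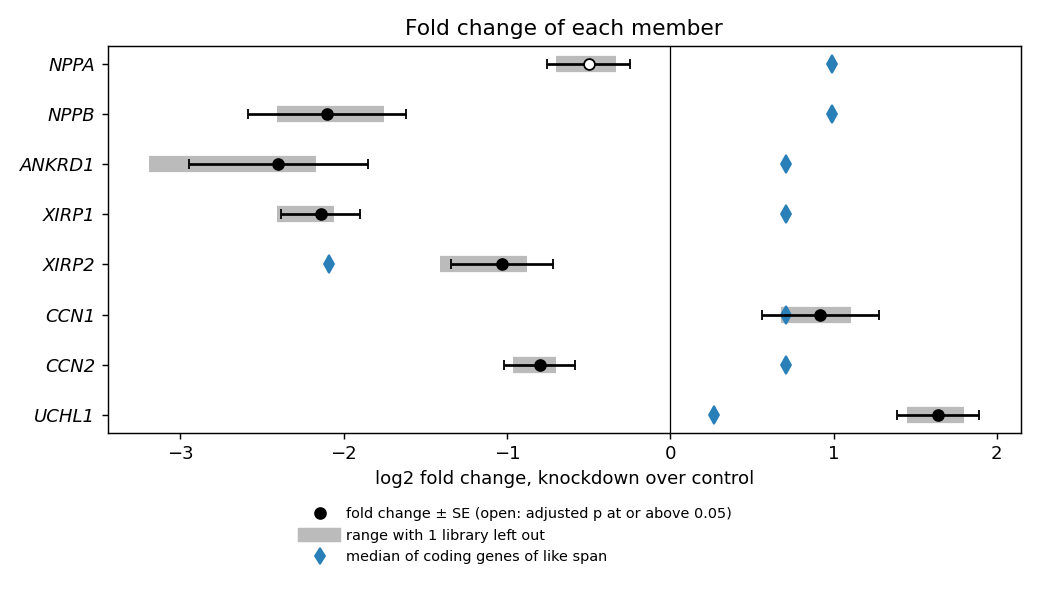
Log2 fold change of each gene, knockdown over control, with its SE (open point: adjusted p at or above 0.05), the range over fits that each leave out 1 library (grey bar), and the median of protein-coding genes in the same class of gene span (diamond). NPPB, ANKRD1, XIRP1 and CCN2 lie below 0 while genes of their span had medians of 0.71 or 0.99.

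Across protein-coding genes the fold change moved with gene span, the length from start to end of the annotated gene. The median log2 fold change was 0.99 for 562 genes up to 3 kb, 0.71 for 2234 genes of 3 to 10 kb, 0.27 for 4068 genes of 10 to 30 kb and -2.09 for 696 genes over 300 kb. For 4783 genes of 30 to 100 kb it was -0.48, and for 2434 genes of 100 to 300 kb it was -1.30. Genes of the related lists were not set against these classes, so the part of span in their fold changes was not tested. NPPB and NPPA span 1.48 and 2.64 kb, and ANKRD1, XIRP1 and CCN2 span 8.99, 9.39 and 3.20 kb. These 5 genes differed from the median of their span class by -3.09 (NPPB), -1.49 (NPPA), -3.10 (ANKRD1), -2.85 (XIRP1) and -1.51 (CCN2) on the log2 scale. XIRP2 spans 371 kb and lay 1.06 above the median of its class. CCN1 (3.83 kb) lay 0.21 above its class and UCHL1 (12 kb) 1.38 above.

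The paralogs CCN1 and CCN2, whose proteins bind integrins and shape the matrix, differed in direction. CCN2 (ENSG00000118523, chromosome 6, 131948176 to 131951372, minus strand, 5 exons) had 75, 136, 107, 92.0 and 88.6 CPM in knockdown replicates 1 to 5, against 218, 210, 203, 134 and 103 CPM in control replicates 1 to 5. Knockdown replicates 2 and 3 overlapped the controls. The means were 99.7 ± 23.3 CPM in knockdown and 173 ± 51.9 CPM in control libraries (SD, n = 5), a log2 fold change of -0.80 ± 0.218 (SE), or 1.74-fold lower (edgeR, adjusted p = 0.00476). Exons of LINC01013 on the opposite strand share 278 bases with CCN2 but had only 62 counts in knockdown and 110 in control libraries.

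CCN1 (ENSG00000142871, chromosome 1, 85580761 to 85584589, plus strand, 5 exons) had 51.8, 61.9, 159, 191 and 130 CPM in knockdown replicates 1 to 5, against 80.0, 68.7, 81.1, 53.4 and 31.5 CPM in control replicates 1 to 5. Knockdown replicates 3, 4 and 5 lay above every control, and replicates 1 and 2 lay among the controls. The means were 119 ± 60.6 CPM in knockdown and 62.9 ± 20.8 CPM in control libraries (SD, n = 5), a log2 fold change of 0.92 ± 0.360 (SE), or 1.89-fold higher (edgeR, adjusted p = 0.033). The call was lost when knockdown replicate 3, 4 or 5 or control replicate 2, 4 or 5 was left out (log2 fold changes 0.79, 0.68, 0.89, 0.92, 0.84 and 0.72, adjusted p of 0.0546 to 0.0893).

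Counts of CCN2 per count of CCN1 were 1.45, 2.2, 0.670, 0.482 and 0.682 in knockdown replicates 1 to 5, against 2.73, 3.06, 2.50, 2.51 and 3.26 in control replicates 1 to 5. CCN2 thus outnumbered CCN1 in every control library and in knockdown replicates 1 and 2, and CCN1 outnumbered CCN2 in knockdown replicates 3, 4 and 5. All knockdown ratios lay below all control ratios. The log2 ratio was -0.10 ± 0.904 in knockdown and 1.48 ± 0.171 in control libraries (SD, n = 5), a difference of -1.58 (exact permutation test, two-sided p = 0.00794, the lowest that 252 labelings allow, adjusted p = 0.0238). The call was kept with each library left out in turn.

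**Figure D4:**
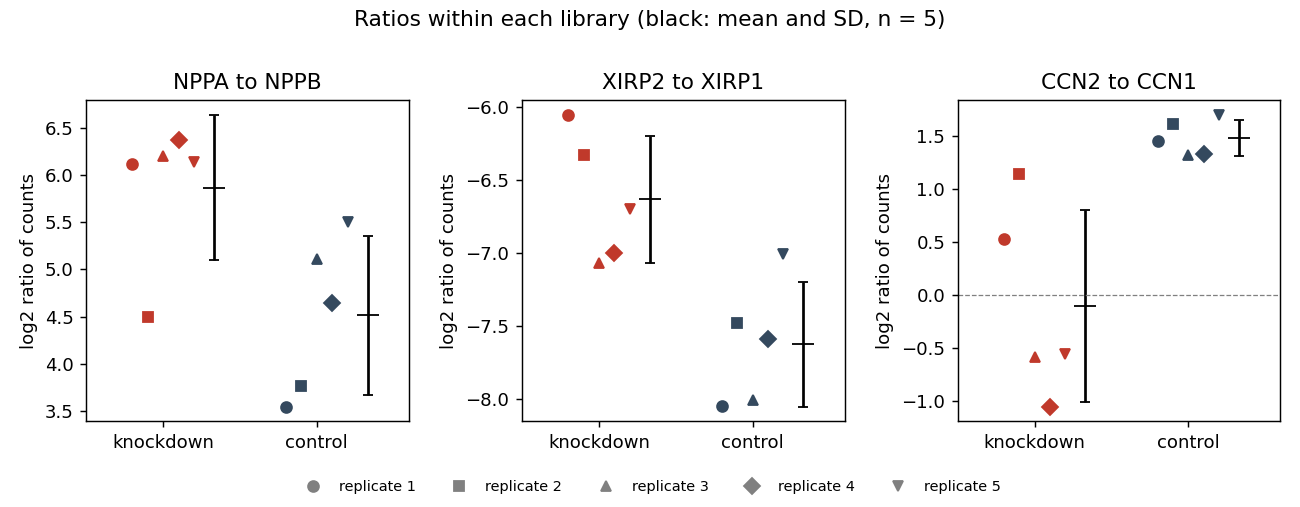
Log2 ratios of counts between paired genes within each library, for 5 knockdown and 5 control libraries with mean and SD in black. The ratio of CCN2 to CCN1 is 1.32 to 1.70 in the controls and -1.05 to 1.14 in the knockdown libraries, where replicates 3, 4 and 5 lie below 0 (dashed line).

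Other CCN genes, their receptors and TGF-beta ligands were tested in 12 of 15 cases, and 11 fell while 1 rose, with a median of -1.03. The gene that rose was CCN3, a further member of the family, which averaged 20.7 ± 11.3 CPM in knockdown and 0.906 ± 0.255 CPM in control libraries (SD, n = 5), 22.7-fold higher. The integrin genes ITGB5 and ITGAV, whose proteins bind CCN1 and CCN2, were 2.82-fold and 5.25-fold lower, and LRP1, an endocytic receptor of CCN2, 2.90-fold lower. CCN4, CCN5 and CCN6 were not tested.

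Of 20 other known YAP and TEAD targets 19 were tested, and 13 fell and 3 rose, with a median of -0.75. AXL, a receptor kinase, was 4.83-fold lower and ASAP1 4.12-fold lower, while NUAK2, a kinase of the AMPK family, was 3.27-fold higher and FJX1 1.70-fold higher. AMOTL2, an inhibitor of YAP, was 1.86-fold lower. In FJX1 and AMOTL2 the groups overlapped. Among 15 targets of SRF and its MRTF cofactors 12 fell and 1 rose, with a median of -0.95. VCL (vinculin) and FLNA (filamin A), of cell adhesions and the actin network, were 4.76-fold and 2.79-fold lower. The cardiac actin gene ACTC1 was 4.19-fold lower with overlap between the groups. The immediate early gene FOS was 2.76-fold higher, also with overlap (58.1 ± 39.3 CPM in knockdown and 21.0 ± 12.6 CPM in control libraries). Fibroblast markers, which could mark another source of CCN RNA, summed to 951 to 1118 CPM in knockdown and 1261 to 1381 CPM in control libraries. Of the 8 markers 2 rose and 4 fell (THY1 6.62-fold and COL1A2 1.57-fold higher, COL3A1 1.78-fold lower, COL1A1 with a log2 fold change of -0.02), and none was at 0 in all libraries. Their part in the CCN1 and CCN2 values was not tested. Of 4 smooth muscle markers all fell, with summed levels of 474 to 871 CPM in knockdown and 1146 to 2388 CPM in control libraries. Of these markers ACTA2, TAGLN and CNN1 are also counted among the SRF and MRTF targets above, so the lists are not separate observations. TAGLN and CNN1 overlapped between the groups. The part of smooth muscle cells was likewise not tested.

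UCHL1 (ENSG00000154277, chromosome 4, 41256413 to 41268455, plus strand, 9 exons) had 184, 147, 339, 438 and 339 CPM in knockdown replicates 1 to 5, against 93.4, 91.1, 94.0, 93.3 and 91.2 CPM in control replicates 1 to 5. Every knockdown library lay above every control, replicates 3, 4 and 5 most. The controls were nearly equal, with a coefficient of variation of 1.47%, where counting error alone would give about 1.68%. It was 41.8% in the knockdown group. The means were 289 ± 121 CPM in knockdown and 92.6 ± 1.36 CPM in control libraries (SD, n = 5), a log2 fold change of 1.64 ± 0.251 (SE), or 3.12-fold higher (edgeR, adjusted p = 6.2e-05).

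No other ubiquitin hydrolase on the list rose. UCHL3 and BAP1 were 1.24-fold and 1.29-fold lower, UCHL3 with overlap between the groups, and UCHL5 did not pass (log2 fold change -0.16). RPS27A, a ubiquitin precursor gene that also encodes a ribosomal protein, was 2.19-fold higher, UBA1, the enzyme that activates ubiquitin, was 1.56-fold higher, and the polyubiquitin gene UBB did not pass (log2 fold change 0.25). Over all 8 tested genes of that list 3 rose and 2 fell, with a median of 0.21 (0.38 without knockdown replicates 1 and 2, and 0.41 with upper-quartile factors). Markers of neurons and neuroendocrine cells, among which UCHL1 is widely used, summed to 61.8 to 84.5 CPM in knockdown and 43.1 to 57.6 CPM in control libraries. The largest part of each sum was TUBB3, at 60.8 ± 8.83 CPM in knockdown and 27.1 ± 6.17 CPM in control libraries (SD, n = 5). Of 12 such genes 9 were tested, and 2 rose while 4 fell, with a median log2 fold change of -0.58. TUBB3 and SYP rose 2.24-fold and 5.14-fold, SNAP25 and SYT1 were among the 4 that fell (2.35-fold and 5.53-fold), and ELAVL4 had 0.00851 CPM in knockdown and 0.00465 CPM in control libraries. SYP and SYT1 were low, at 1.96 and 0.511 CPM in knockdown and 0.375 and 2.88 CPM in control libraries. The part of such cells in the UCHL1 value was not tested.

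Per kb of the canonical transcript the order of the 8 genes differed between the groups. In knockdown libraries the level fell in the order NPPA (2020 CPM per kb), UCHL1 (262), ANKRD1 (121), CCN1 (52.1), NPPB (42.9), CCN2 (42.6), XIRP1 (35.2) and XIRP2 (0.193). In control libraries it fell in the order NPPA (2851 CPM per kb), ANKRD1 (635), NPPB (184), XIRP1 (155), UCHL1 (83.9), CCN2 (74.2), CCN1 (27.6) and XIRP2 (0.398). Libraries overlapped between neighbours in several places. NPPB ran from 66.5 to 352 CPM per kb in control libraries and so overlapped ANKRD1, XIRP1, UCHL1 and CCN2. In knockdown libraries UCHL1 overlapped ANKRD1, ANKRD1 overlapped CCN1 and NPPB, and CCN1, NPPB, CCN2 and XIRP1 overlapped one another. NPPA stood above, and XIRP2 below, the other 7 genes in all 10 libraries.

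Levels were also set against TNNT2 of the same library, which shifts all 8 genes of a library alike. TNNT2 itself was lower in the knockdown (log2 fold change -1.57), which raises every ratio in knockdown libraries. The mean log2 ratio of CPM to TNNT2 was 0.119 in knockdown and -0.878 in control libraries for NPPA, -2.47 and -5.58 for UCHL1, -3.82 and -6.22 for CCN1, and -3.93 and -4.73 for CCN2. It was -3.13 in knockdown and -2.17 in control libraries for ANKRD1, -2.77 and -2.18 for XIRP1, -5.75 and -5.40 for NPPB, and -9.40 and -9.81 for XIRP2. CCN2 and XIRP2, which were called lower, thus had higher ratios in knockdown than in control libraries, as did NPPA. These values are a description with no test.

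The libraries of a group were ordered alike by some of the genes. Knockdown replicates 4, 3 and 5 were the highest, in that order, for NPPA, CCN1 and UCHL1, and replicate 2 was the highest for NPPB, ANKRD1, XIRP1, XIRP2 and CCN2. In the control group replicates 1 and 2 were the highest for NPPA, NPPB, ANKRD1, XIRP1 and CCN2. Likeness to other genes was measured by Pearson's r of log2 CPM, as deviations from the group means over 10 libraries, among 9620 protein-coding genes with a mean of at least 10 CPM. The gene most like ANKRD1 was XIRP1 (r = 0.989), and the converse held, followed for both by SDHA, a subunit of respiratory complex II (0.980 for ANKRD1 and 0.987 for XIRP1). CCN1 was most like ATF3 (0.990) and IER3 (0.986), both immediate early stress genes, and then ACTB (0.977). CCN2 was most like THBS1 (0.975), which encodes the matricellular protein thrombospondin 1, followed by SPRY4 (0.953) and RAN (0.952). UCHL1 was most like TCEAL1 (0.999), PLPPR2 (0.996) and FAM32A (0.996), NPPA like DMAC2 (0.988), RNF41 (0.984) and CES1 (0.984), NPPB like CIAO2B (0.989), SLC25A30 (0.985) and VDAC1 (0.983), and XIRP2 like ARSD (0.990), FDX1 (0.990) and FITM2 (0.988). These are the highest values of 9620 and come from the same 10 libraries, with the depth and scaling that these share, so they are given as a description with no test. For UCHL1, whose control libraries were nearly equal, r rests almost wholly on the knockdown libraries.

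Of 13 tested genes of 14 otherwise known to respond to load or stress in heart muscle, 4 rose and 6 fell, with a median of -0.34. That median was -0.20 without knockdown replicate 2, -0.16 without knockdown replicates 1 and 2, and -0.14 with upper-quartile factors. MYC rose 6.30-fold (22.1 ± 12.2 CPM in knockdown and 3.51 ± 0.695 CPM in control libraries, SD, n = 5) and heme oxygenase 1 (HMOX1) 4.15-fold. The skeletal actin gene ACTA1, a classic marker of hypertrophy, was 4.56-fold lower with wide spread (39.4 ± 27.6 CPM in knockdown and 180 ± 144 CPM in control libraries), and TNC and THBS1, of the matrix, were 3.69-fold and 2.16-fold lower. GDF15, a secreted stress cytokine, was 1.63-fold higher. In ACTA1 and GDF15 the groups overlapped. ATF3, the gene most like CCN1 across libraries, did not itself pass (log2 fold change 0.19).

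Stretch-related channel genes were tested in 11 of 14 cases, and 9 fell and 1 rose, with a median of -1.19. PIEZO1, a mechanically gated channel, averaged 53.4 ± 12.5 CPM in knockdown and 106 ± 9.64 CPM in control libraries (SD, n = 5), 1.98-fold lower. PKD2 and PKD1, the polycystins, were 3.48-fold and 2.39-fold lower, and TRPV2 2.22-fold higher at 0.552 ± 0.134 CPM in knockdown libraries. LRRC8A, a subunit of volume-regulated channels, did not pass (log2 fold change 0.12).

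**Figure D5:**
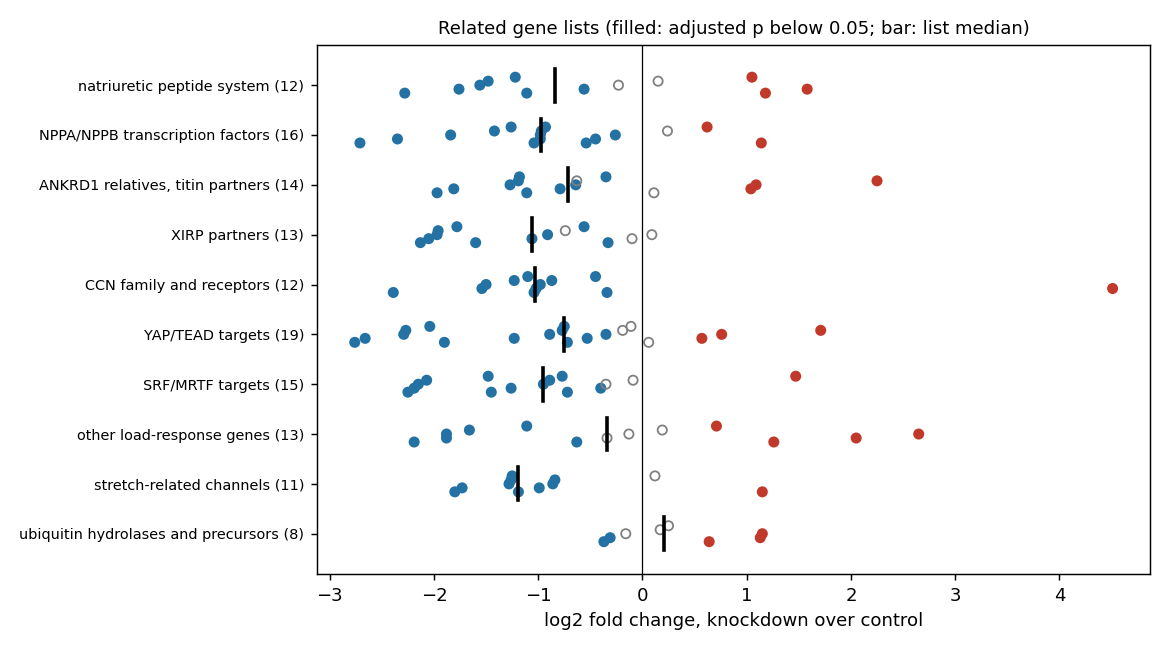
Log2 fold change, knockdown over control, of each tested gene in the 10 related lists, with the number of tested genes in brackets, filled points for an adjusted p below 0.05 (red higher, blue lower), open points for the rest and a black bar at the list median. Medians lie between -1.19 and -0.34 in 9 lists and at 0.21 in the list of ubiquitin hydrolases and precursors.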

How the data were processed

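The authors deposited whole-number read counts per gene for 10 libraries. The design text also describes scaling to depth and gene length, but the values are raw. Per the submitters' processing notes, Trim Galore 0.65, STAR 2.7.0 and HTSeq were used with GRCh38, and the design text names GENCODE release 38. For HTSeq, neither the version nor the strand setting is known here. Columns were assigned to samples, groups and replicates by title. Names, spans and exons were taken from GENCODE release 44, which matched 61481 of 78932 identifiers.

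TMM-scaled counts were analysed with edgeR 4.0.16 (R 4.3.3) by quasi-likelihood F tests after filterByExpr, with robust dispersions and Benjamini-Hochberg adjustment across 21033 genes at a threshold of 0.05. The SE was taken as the absolute log2 fold change over the square root of F. With this scaling, a fold change is relative to the other genes of the library. For ratios, permutation tests enumerated all 252 labelings exactly and were adjusted over the 3 ratios. No label states that replicates are separate cultures, so p-values measure only the spread between these samples, which may be technical. The lowest chi-square per degree of freedom between replicates was 4.47, so none counted as a duplicate.

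The members, the 10 related lists and the 10 marker lists were chosen with earlier results of these data known. Named list genes are up to 2 rising and 2 falling genes with the smallest p per list. Others are named for their role and were chosen after their values were seen. For likeness the 3 genes with the highest r are named. A few genes of these lists are counted but not reported here by name. Promoters come from RefSeq. DESeq2 1.42.0 and limma 3.58.1 (voom) were alternatives. Figures were drawn with matplotlib 3.10.9.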

Additional observations from a re-analysis of the deposited data

Results flagged for a closer look

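Of 22 groups of 5 libraries checked (8 genes and 3 ratios in each of the groups), 3 held a library whose gap to the nearest other exceeded the limit of Dixon's test, where chance gives about 1 in 20. All 3 were knockdown replicate 2. It had 577 CPM of ANKRD1, against 116 to 149 CPM in the other knockdown libraries, and 374 CPM of XIRP1, against 178 to 203 CPM. Its log2 ratio of NPPA to NPPB was 4.5, against 6.12 to 6.37 in the others. The same library had the highest TNNT2 level of its group (1802 CPM) and, on the first principal component, the score closest to those of the controls (-49.5). The part of that position in these values was not tested.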

How the results depend on the processing

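Of 294 values recomputed under alternatives, 268 kept their direction and their side of the threshold (counts within 1.5 times), and none reversed. The count of genes changed was 16773, and 16361 to 17650 with 1 library left out. The median log2 fold change of all genes was 0.20 with upper-quartile scaling, against 0.01. Leaving out 1 library at a time gave log2 fold changes of -0.70 to -0.33 for NPPA and 0.68 to 1.11 for CCN1, and differences of 1.10 to 1.69 for the ratio of NPPA to NPPB. CCN1 also did not pass with limma-voom (0.83, adjusted p = 0.0571), with no filter beyond 1 count (0.87, adjusted p = 0.132) or with the replicate block (0.82, adjusted p = 0.0782), and the cause was not tested. No label states that equal replicate numbers are paired. Correlations of deviations between them were low and mixed in sign (-0.17, 0.221, 0.105, -0.000432 and -0.0361 for replicates 1 to 5). They cannot exclude pairing, so the replicate block is a hint only. The block changed no other call of the 8 genes. With the replicate block the ratios kept their differences of 1.35 (NPPA to NPPB), 1.00 (XIRP2 to XIRP1) and -1.58 (CCN2 to CCN1), but an exact test over 5 pairs cannot give a p below 0.0625. Without knockdown replicates 1 and 2 together the ratio differences were 1.72, 0.71 and -2.21 in the same order (adjusted p = 0.0536, 0.0714 and 0.0536), with fewer libraries. Alternatives chosen after seeing the data moved the count of genes called by over 1.5 times in a pair of lists, the ubiquitin list to 8 genes called without those libraries and the epicardial markers to 1 with upper-quartile scaling. XIRP2, at 46 to 292 counts per library, is the gene most limited by depth.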

Other observations

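Genes that distinguish atrial from ventricular heart muscle, among which NPPA is usually counted with the atrial ones, moved in both directions. Of 7 tested atrial markers other than NPPA 3 rose and 2 fell. Their median log2 fold change was 0.34, or 0.04 when knockdown replicate 2 was left out and 0.52 with upper-quartile factors. Among those that rose were the transcription factor genes NR2F2 (15.8 ± 3.55 CPM in knockdown and 5.53 ± 1.04 CPM in control libraries, SD, n = 5, 2.86-fold) and NR2F1 (3.94-fold), both without overlap between the groups. NR2F1 was low, at 1.1 CPM in knockdown and 0.271 CPM in control libraries. The atrial light chain gene MYL4 was 1.96-fold lower and the potassium channel gene KCNJ3 2.41-fold lower. Of 6 ventricular markers 5 fell and none rose, with a median of -0.98. HEY2 was 3.58-fold lower, LBH 2.26-fold and IRX4 1.46-fold lower, and MYL2 did not pass (log2 fold change -0.27).

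Of 6 markers of undifferentiated cells 3 were tested, and 2 rose while TDGF1 did not pass (log2 fold change 0.26). LIN28A and DPPA4 rose 9.67-fold and 7.65-fold at low levels (2.51 and 1.65 CPM in knockdown libraries, 0.258 and 0.211 CPM in control libraries). POU5F1, a defining gene of pluripotent cells, had 0.0839 CPM in knockdown and 0.1 CPM in control libraries and was not tested. NANOG and SOX2 were not tested either. Endothelial markers summed to 8.51 to 16.8 CPM in knockdown and 29.6 to 50.3 CPM in control libraries, epicardial markers to 2.18 to 4.15 and 5.13 to 6.70 CPM, and endoderm markers to 10.8 to 20 and 5.46 to 6.93 CPM in that order of groups. Of 4 tested endothelial markers 2 fell (KDR and TEK), of 3 epicardial markers all fell, and of 2 endoderm markers 1 rose (APOA1), with no other calls in these lists. KDR made up most of the endothelial sums, at means of 11.6 CPM in knockdown and 36.5 CPM in control libraries. APOA1 made up most of the endoderm sums, at 14.9 and 6.03 CPM.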
